A study of Mus musculus with 6 samples.

Results

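The genes described here are 10 that belong to the NRF2 antioxidant response, chosen by gene symbol among the 20591 genes of the table. They are Nfe2l2, Keap1, Hmox1, Nqo1, Gclc, Gclm, Txnrd1, Srxn1, Prdx1 and Sqstm1, and all 10 were present. Their mRNA was followed by RNA sequencing of sorted colon B cells, from mice treated with lenvatinib (3 libraries) or with DMSO (3 libraries). Lenvatinib blocks several receptor tyrosine kinases, mainly the VEGF and FGF receptors, and DMSO is the solvent used as its control. The title of the series places the experiment in a study of colitis, but the sample labels give no inflammatory state, strain, age, dose or duration, and name no genetic change in either group. The libraries are numbered as biological replicates, but the labels do not tie them to single animals, so a p-value here reflects library-to-library spread that may be technical.

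NRF2, encoded by Nfe2l2, is a transcription factor that pairs with small MAF proteins on antioxidant response elements. Its inhibitor KEAP1 holds it in the cytoplasm and hands it to a CUL3 ubiquitin ligase, until oxidants or electrophiles modify KEAP1 and NRF2 escapes degradation. Much of this control acts on the protein, so the mRNA of Nfe2l2 is not a readout of NRF2 activity. Known targets make glutathione, reduce thioredoxin and peroxiredoxins, detoxify quinones and degrade haem. In B cells the related repressors BACH1 and BACH2 occupy the same kind of element, and BACH2 is best known for restraining plasma cell differentiation.

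The promoters of the members that are in a RefSeq promoter table of mouse build GRCm38.p6 were searched for the core of the antioxidant response element, TGACNNNGC, on both strands. The table holds 8 of the 10 members, and Hmox1 and Gclc are not in it. Each window spans 250 bases before to 50 bases after a gene start. The element was found in 5 of these 8 members. It was found in 12.4 percent of all 32851 windows in the table (14 percent of its 27025 genes, counting any window of a gene). The members were picked as genes of the NRF2 response, so these shares were not tested against each other. The 5 stretches are shown because they place the element in members with different outcomes. As given below, Prdx1 rose, Nfe2l2 fell, Gclm and Txnrd1 did not pass the threshold, and Srxn1 was too low to be tested. Each stretch is written 5′ to 3′ on the strand of the gene, with the element in capitals.
Prdx1: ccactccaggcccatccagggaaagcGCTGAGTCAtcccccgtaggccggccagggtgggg
Nfe2l2: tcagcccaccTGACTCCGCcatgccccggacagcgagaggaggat
Gclm: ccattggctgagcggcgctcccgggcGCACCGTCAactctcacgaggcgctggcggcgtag
Txnrd1: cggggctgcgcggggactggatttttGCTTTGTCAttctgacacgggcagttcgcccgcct
Srxn1: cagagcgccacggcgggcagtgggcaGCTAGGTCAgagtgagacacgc
The stretches lie at chr4:116685440-116685500 on the plus strand for Prdx1, chr2:75704869-75704913 on the minus strand for Nfe2l2 and chr3:122245397-122245457 on the plus strand for Gclm. Those of Txnrd1, in 1 of its 3 windows, and Srxn1 lie at chr10:82859088-82859148 and chr2:152105526-152105573, both on the plus strand. In Nfe2l2 the element reads along the gene, and in the other 4 members it reads on the opposite strand. It starts 133 bases before the gene start in Prdx1, 240 before it in Nfe2l2, 134 before it in Gclm and 92 before it in Txnrd1, and in Srxn1 it lies after the start, from base 29.

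In Prdx1 the element overlaps a site for AP-1, the FOS and JUN factors, searched as TGANTCA on both strands, which 7.81 percent of all windows hold. A further AP-1 site of Prdx1 starts 237 bases before the gene start, clear of the element. Srxn1 has AP-1 sites as well, starting 102 and 45 bases before its start.
Srxn1 AP-1 upstream: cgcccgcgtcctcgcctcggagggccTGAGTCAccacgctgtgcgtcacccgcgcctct
Srxn1 AP-1 downstream: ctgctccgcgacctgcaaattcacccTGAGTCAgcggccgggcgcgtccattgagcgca
These stretches, with the site in capitals, lie at chr2:152105396-152105454 and chr2:152105453-152105511 on the plus strand of GRCm38.p6. The windows of Keap1, Nqo1 and Sqstm1 hold neither motif. A match describes letters in a short window and says nothing of binding there or elsewhere near the gene.

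Library totals recovered from the FPKM were 26635279 to 31655500 reads. Whether these totals hold only reads assigned to genes was not checked. After scaling by factors of 0.992 to 1.01, values are given as scaled FPKM, fragments per gene length and library total. All 12 B cell markers were found above 1 scaled FPKM, but their sum was 2555 to 2601 in lenvatinib libraries against 3072 to 3115 in DMSO libraries, a ratio of means of 0.832. The sum of colon epithelium markers was 65.5 to 69.9 in lenvatinib libraries and 14.5 to 15 in DMSO libraries, and that of T cell markers 95 to 97.6 and 21.4 to 23.1. Natural killer and innate lymphoid markers summed to 165 to 169 in lenvatinib and 31.1 to 37.1 in DMSO libraries. Macrophage and dendritic cell markers summed to 73.7 to 84.1 in lenvatinib and 62.9 to 66.2 in DMSO libraries. Group means were higher in lenvatinib libraries for 12 of 12 epithelial, 8 of 9 T cell, 10 of 10 natural killer and 13 of 15 macrophage and dendritic cell markers, and lower for 12 of 12 B cell markers. Neutrophil markers summed to 12 to 17.2 in lenvatinib and 6.43 to 7.48 in DMSO libraries, with 7 of 8 means higher, and erythroid markers to 9.66 to 15 and 4.17 to 6.25, with 5 of 5 higher. Plasma cell markers summed to 337 to 354 in lenvatinib and 365 to 368 in DMSO libraries. Of their 7 means 3 were higher and 4 lower in lenvatinib libraries. Among them Irf4 was lower (104 against 136) and Jchain higher (62.9 against 45.9), both named after their values were seen. Endothelium and fibroblast markers summed to 36.6 to 37.7 and 45 to 45.2, with 5 of 9 means higher and 4 lower. Most of that sum was Pecam1, named after its values were seen, at 32.9 in lenvatinib and 42.3 in DMSO libraries. No marker of these lists was at 0 in all libraries, and Trac, Trbc1, Trbc2 and Vsig4 were not used here. These are bulk libraries, so fewer cells of a type and less RNA per cell cannot be told apart.

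Lenvatinib libraries had higher Prdx1 and Sqstm1 and lower Nfe2l2, with ratios of group means of 1.19, 1.2 and 0.823, and no other member that could be tested passed the threshold. Prdx1 encodes a peroxiredoxin that removes hydrogen peroxide, and Sqstm1 encodes p62, an autophagy receptor that also binds KEAP1. Of the 10 members, 8 were at 1 scaled FPKM or more in at least 3 libraries and were tested, while Nqo1 and Srxn1 were not. At an adjusted p of 0.05 (limma, Benjamini-Hochberg over all 9937 tested genes) 2 rose and 1 fell, where 10.4 percent of all tested genes rose and 8.21 percent fell, 18.7 percent in all. The groups did not overlap for 3 of the 8, against 37.1 percent of all tested genes. The median log2 change of the 8 was 0.09, with a range of −0.27 to 0.26, and that of all tested genes was 0.01. Changes are on the scale log2(scaled FPKM + 1), lenvatinib minus DMSO, which understates the change of low genes, and values after ± are SDs over n = 3 libraries.

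**Figure D1:**
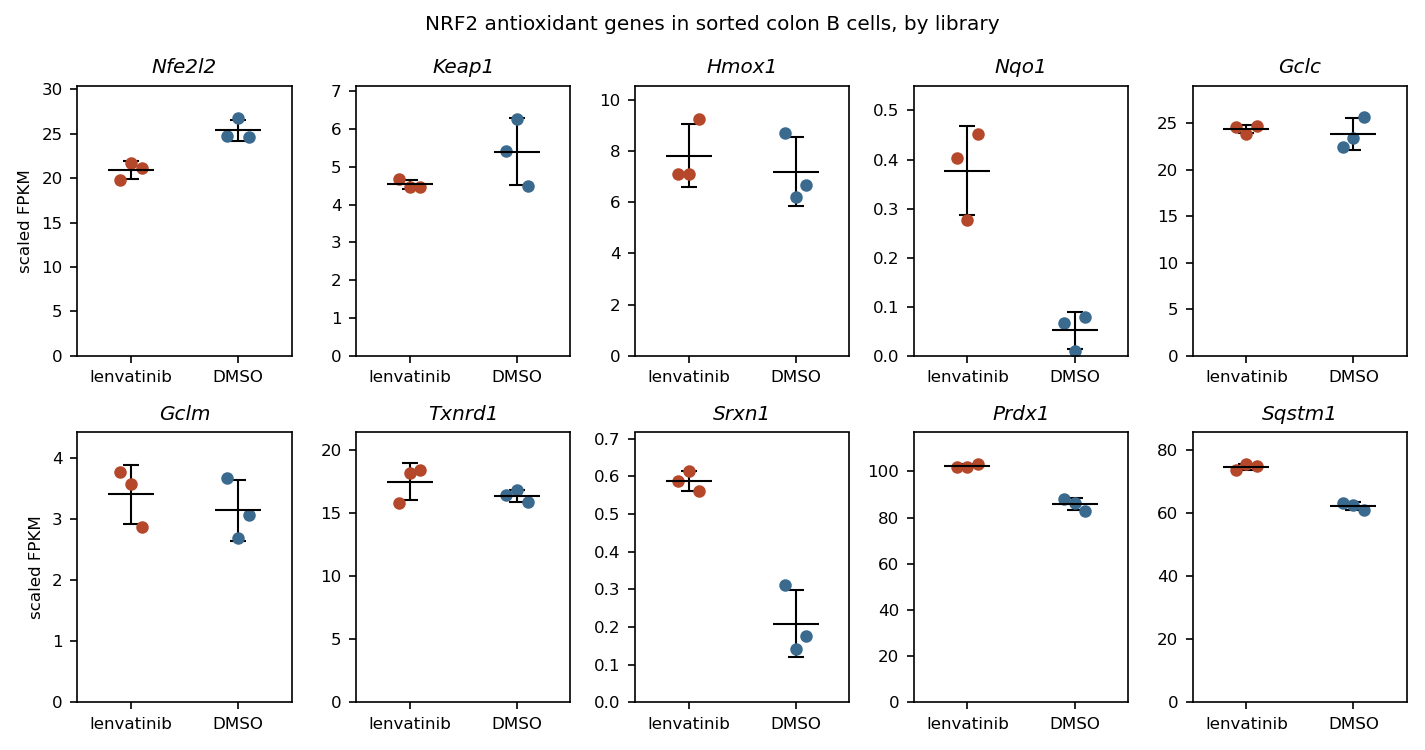
Scaled FPKM (y axis, own scale per gene, from 0) of each of the 10 members in lenvatinib and DMSO libraries. Points are libraries, horizontal bars are group means and error bars are SDs (n = 3). The lenvatinib points lie above all DMSO points for Nqo1, Srxn1, Prdx1 and Sqstm1, and below them for Nfe2l2.

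Of NRF2 and its inhibitor, Nfe2l2 came out lower and Keap1 was without a call. Nfe2l2, the gene of NRF2 itself, stood at 19.7, 21.7 and 21.1 scaled FPKM in lenvatinib libraries 1 to 3, against 24.8, 26.7 and 24.6 in DMSO libraries. Every lenvatinib library lay below every DMSO library. The group means were 20.9 ± 1 and 25.4 ± 1.21, with a log2 change of −0.27, SE 0.06 and a limma adjusted p = 0.0116, from 7041 reads in lenvatinib and 8477 reads in DMSO libraries. The ratio of these means was 0.823, and that of the summed B cell markers was 0.832. The part of B cell RNA in the Nfe2l2 change was not tested. When FPKM was scaled to the B cell markers the median of all genes shifted to 0.23, the change of Nfe2l2 was −0.02 (limma adjusted p = 0.75), and relative to that median it was −0.26.

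Keap1, which encodes the inhibitor of NRF2, had 4.68, 4.47 and 4.47 scaled FPKM in lenvatinib libraries and 5.43, 6.26 and 4.5 in DMSO libraries. DMSO replicate 2 was the highest and DMSO replicate 3 was level with the lenvatinib libraries, so the groups overlapped. The log2 change was −0.2, with a 95 percent interval of −0.44 to 0.05 (limma adjusted p = 0.244), and it was −0.1 without DMSO replicate 2 and −0.3 without DMSO replicate 3. With scaling to the B cell markers it was 0.01. The ratio of Nfe2l2 to Keap1 was 4.22, 4.86 and 4.73 in lenvatinib libraries and 4.56, 4.27 and 5.46 in DMSO libraries. On the log2 scale the ratio differed by −0.05 (exact two-sided permutation p = 0.8, 0.9 adjusted over 4 ratios), and its sign turned without lenvatinib replicate 1 (0.0163) or DMSO replicate 3 (0.0577). The smallest p this test allows with 3 libraries per group is 0.1.

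Sqstm1 had 73.4, 75.3 and 74.8 scaled FPKM in lenvatinib libraries, against 63.2, 62.3 and 60.9 in DMSO libraries. The groups were apart, with the lowest lenvatinib library well above the highest DMSO library. Means were 74.5 ± 1.01 and 62.1 ± 1.15, with a ratio of 1.2, a log2 change of 0.26, SE 0.03 and a limma adjusted p = 0.000919, from 37531 and 30890 reads. Among all 20591 genes Sqstm1 stood at the 96th percentile of level. Its window, as given above, holds neither motif.

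Prdx1 was the most abundant member, at the 97.3rd percentile of level, with 102, 102 and 103.3 scaled FPKM in lenvatinib libraries and 88.2, 86.3 and 82.9 in DMSO libraries. The lenvatinib libraries were nearly level with each other and all lay above the DMSO libraries. Means were 102.4 ± 0.716 and 85.8 ± 2.7, with a ratio of 1.19, a log2 change of 0.25, SE 0.03 and a limma adjusted p = 0.000924. An annotated pseudogene of Prdx1 could share its reads. The calls of Prdx1 and Sqstm1 held in all 20 alternatives run on each, with log2 changes of 0.23 to 0.51 for both genes. The upper end came from scaling to the B cell markers, where their changes relative to the median of all genes were 0.28 and 0.28. The part of T cell, natural killer and epithelial RNA in these changes was not tested.

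**Figure D2:**
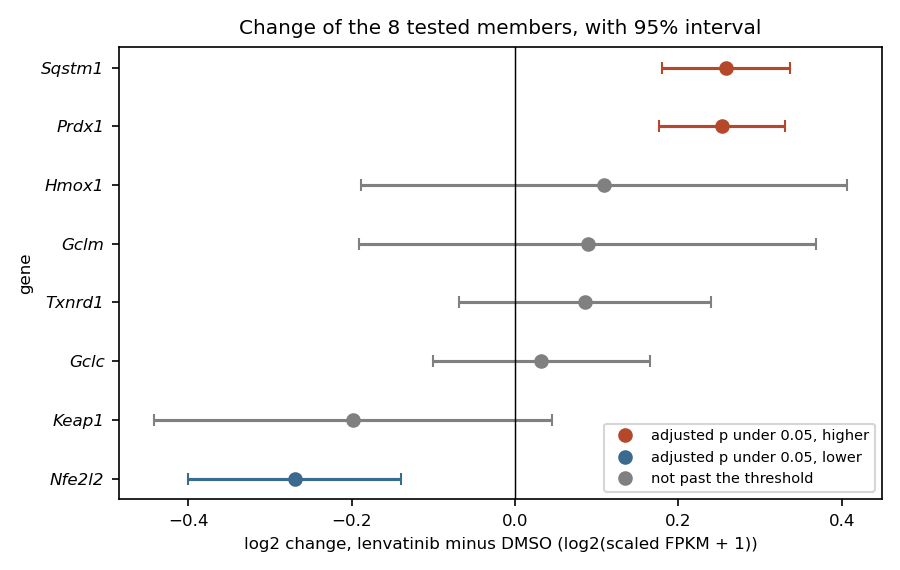
Log2 change (x axis, lenvatinib minus DMSO, on log2(scaled FPKM + 1)) of the 8 tested members, with the 95 percent interval of the limma fit over 3 libraries per group. The intervals of Sqstm1 and Prdx1 lie above 0 and that of Nfe2l2 below it, while those of the other 5 include 0.

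Srxn1 encodes sulfiredoxin, which repairs peroxiredoxins that peroxide has over-oxidised. It was low, with 0.589, 0.615 and 0.561 scaled FPKM in lenvatinib libraries against 0.311, 0.142 and 0.176 in DMSO libraries. These values rest on 64, 61 and 53 reads in lenvatinib and 28, 15 and 18 reads in DMSO libraries, so the groups were apart but the counts were small. Pooled over libraries, Srxn1 took 2.02 RPM (reads per 1000000) in the lenvatinib group (95 percent exact Poisson interval 1.73 to 2.34) and 0.693 in the DMSO group (0.53 to 0.89). These intervals cover counting error only. Without a filter on low values, where 3.65 percent of all genes were called higher, the log2 change was 0.4 (SE 0.09) and did not pass (limma adjusted p = 0.0576). In a pair of alternatives without the filter, added after seeing the data, a pseudocount of 0.1 gave 1.19 (limma adjusted p = 0.0638) and limma-voom on recovered reads gave 1.57 (adjusted p = 0.0666). The ratio of mean scaled FPKM was 2.81.

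The ratio of Prdx1 to Srxn1, a peroxiredoxin to its repair enzyme, was 173.2, 166 and 183.9 in lenvatinib libraries and 284, 609 and 471 in DMSO libraries. Every lenvatinib library had the lower ratio. The difference of the log2 ratios was −1.32, with the smallest p that the exact permutation test allows, 0.1 (0.2 adjusted over 4 ratios). Srxn1 had only 15 to 28 reads in each DMSO library.

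Glutathione synthesis starts with glutamate-cysteine ligase, whose catalytic subunit is Gclc and whose modifier subunit is Gclm. Gclc had 24.6, 23.9 and 24.7 scaled FPKM in lenvatinib libraries and 22.4, 23.4 and 25.7 in DMSO libraries. The DMSO libraries spanned the lenvatinib values, with a log2 change of 0.03 and a 95 percent interval of −0.1 to 0.16 (limma adjusted p = 0.754). The sign of this value turned without DMSO replicate 1, to −0.0088. Scaled to the B cell markers the change was 0.28 (limma adjusted p = 0.00361), which is 0.05 relative to the median of all genes.

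Gclm had 3.77, 3.57 and 2.86 scaled FPKM in lenvatinib libraries and 3.67, 2.69 and 3.06 in DMSO libraries, with overlapping groups. Its log2 change was 0.09, with an interval of −0.19 to 0.37 (limma adjusted p = 0.673). Leaving out 1 library moved it to between 0.009 (without DMSO replicate 2) and 0.18 (without lenvatinib replicate 3 or DMSO replicate 1). Per length, the catalytic subunit exceeded the modifier in every library. The ratio of Gclc to Gclm was 6.52, 6.7 and 8.62 in lenvatinib libraries and 6.11, 8.71 and 8.41 in DMSO libraries, and the log2 ratios differed by −0.08 (exact permutation p = 0.9, adjusted p = 0.9). That difference was −0.25 without DMSO replicate 1, −0.21 without lenvatinib replicate 3 and 0.0103 without DMSO replicate 2, and closer to 0 than −0.03 without any other library.

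Txnrd1 encodes the cytosolic selenoenzyme that reduces thioredoxin with NADPH. It had 15.8, 18.2 and 18.5 scaled FPKM in lenvatinib libraries and 16.5, 16.8 and 15.9 in DMSO libraries. Lenvatinib replicate 1 was the lowest of all 6 libraries and the other lenvatinib libraries were the highest. The log2 change was 0.09, with an interval of −0.07 to 0.24 (limma adjusted p = 0.437), and it was 0.15 without lenvatinib replicate 1, 0.06 without lenvatinib replicate 2 and 0.05 without lenvatinib replicate 3. Scaled to the B cell markers it was 0.33 (limma adjusted p = 0.00345), and 0.1 relative to the median of all genes.

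Hmox1 encodes haem oxygenase 1, which breaks down haem and is repressed by BACH1. It had 7.11, 7.11 and 9.24 scaled FPKM in lenvatinib libraries and 8.72, 6.19 and 6.68 in DMSO libraries. The highest library of each group stood apart from its other libraries and the groups overlapped. The log2 change was 0.11, with an interval of −0.19 to 0.41 (limma adjusted p = 0.623), and it was −0.0033 without lenvatinib replicate 3. Macrophages are a strong source of Hmox1, and 13 of 15 macrophage and dendritic cell markers had higher means in lenvatinib than in DMSO libraries. Only 4 of the 15 were apart between the groups, and 4 were under 1 scaled FPKM in all libraries. The part of macrophages and dendritic cells in the Hmox1 level was not tested.

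Nqo1 encodes a quinone reductase and is among the most used reporters of NRF2 activity. It was the lowest member, with 0.402, 0.277 and 0.453 scaled FPKM in lenvatinib libraries against 0.0678, 0.0096 and 0.0795 in DMSO libraries. The reads behind these values were 43, 27 and 42 in lenvatinib and 6, 1 and 8 in DMSO libraries, and the groups did not overlap. Pooled, Nqo1 took 1.27 RPM in the lenvatinib group (95 percent exact Poisson interval 1.05 to 1.53) and 0.17 in the DMSO group (0.0954 to 0.281), and the ratio of mean scaled FPKM was 7.21.

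Without a filter on low values Nqo1 passed the threshold, at a log2 change of 0.39, SE 0.08 and a limma adjusted p = 0.0447, where 3.65 percent of all genes were called higher. A pseudocount of 1 is far above these levels. On recovered reads without a filter, an alternative added after seeing the data, limma-voom gave 3.08 (SE 0.8, adjusted p = 0.0216), with 5.73 percent of all genes called higher. The colon epithelium markers, whose cells are known to express Nqo1, were higher in the same libraries: 12 of 12 means, with a ratio of summed levels of 4.57. None of the 12 was at 0 in all libraries, and their part in the Nqo1 value was not tested.

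**Figure D3:**
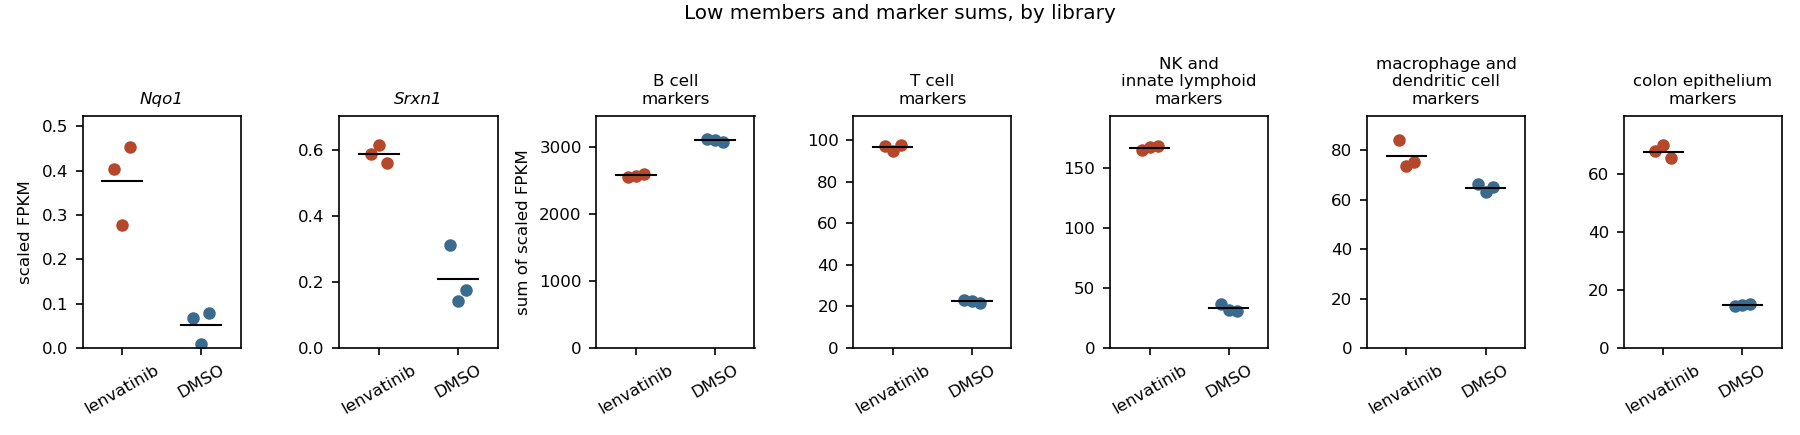
Scaled FPKM of Nqo1 and Srxn1 and the sum of scaled FPKM over 5 marker lists (y axes from 0) in lenvatinib and DMSO libraries. Points are libraries and bars are group means. The lenvatinib points lie above the DMSO points in every panel except that of the B cell markers, where they lie below.

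By level per length, the order of the members was nearly the same in both groups: Prdx1, Sqstm1, then Gclc, Nfe2l2 and Txnrd1 in the middle, then Hmox1, Keap1 and Gclm, with Srxn1 and Nqo1 lowest. Nfe2l2 and Gclc changed places. In lenvatinib libraries all 3 values of Gclc, the lowest 23.9, lay above those of Nfe2l2, the highest 21.7, and in DMSO libraries their ranges overlapped, with Nfe2l2 at 24.6 to 26.7 and Gclc at 22.4 to 25.7. In DMSO libraries the ranges of Hmox1 and Keap1 overlapped as well. All other neighbours in the order were apart in both groups. The 10 members together summed to 252, 257 and 260 scaled FPKM in lenvatinib libraries and 233, 231 and 224 in DMSO libraries, and most of that sum was Prdx1 and Sqstm1.

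Among the partners and competitors of NRF2, 1 of 12 tested genes rose and 3 fell, 33.3 percent called against 18.7 percent of all tested genes, with a median log2 change of −0.02. Bach2 fell, at 3.05 ± 0.0112 scaled FPKM in lenvatinib and 4.38 ± 0.118 in DMSO libraries (log2 change −0.41, SE 0.08, limma adjusted p = 0.00893). Bach1 had 11 ± 0.261 and 12.1 ± 0.412 and did not pass (limma adjusted p = 0.198). The ratio of Bach2 to Bach1 was 0.273 to 0.283 in lenvatinib libraries and 0.359 to 0.363 in DMSO libraries, a difference of the log2 ratios of −0.39 (exact permutation p = 0.1, the smallest possible, adjusted p = 0.2).

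The other 2 that fell take part in the degradation of NRF2 that does not need KEAP1. They were Gsk3b, a kinase that marks NRF2, at 8.08 ± 0.0864 in lenvatinib and 9.93 ± 0.487 in DMSO libraries, and Fbxw11, a receptor subunit of the ligase that then binds it, at 21 ± 1.22 and 24.4 ± 1.08. Nfe2l1, a relative of NRF2 that drives proteasome genes, rose, at 34.2 ± 1.46 in lenvatinib and 29.5 ± 0.592 in DMSO libraries. The limma adjusted p of these 3 was 0.0229, 0.0384 and 0.0167. Of 18 alternatives, 12 called Gsk3b, 7 called Fbxw11 and 15 called Nfe2l1. The small MAF genes Mafg (8.32 ± 0.0528 and 7.73 ± 0.45) and Mafk (24.1 ± 0.895 and 23.5 ± 0.214) and the ligase scaffold Cul3 (49.1 ± 1.7 and 48.4 ± 0.97) did not pass. Scaled to the B cell markers, 7 genes of this list were called higher and 0 lower, where 50.4 percent of all genes were called higher and 1.63 percent lower, and Bach2 was at −0.21 (limma adjusted p = 0.0613). Without DMSO replicate 2 there were 2 calls lower, and without any other single library 1. The call higher was lost without lenvatinib replicate 1 or 2 or DMSO replicate 1. Over all genes, leaving out 1 library gave 772 to 850 calls higher and 563 to 650 lower, against 1038 and 816 with all libraries.

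Around glutathione, 4 of 15 tested genes rose and 0 fell, with a median of 0.19. That is 26.7 percent called, against 18.7 percent of all tested genes. Gpx4, the peroxidase that protects membrane lipids, was at 66.2 ± 4.52 in lenvatinib and 50.6 ± 1.36 in DMSO libraries (log2 change 0.38, SE 0.05, limma adjusted p = 0.00113). Gsr, which regenerates glutathione with NADPH, was at 2.5 ± 0.0836 and 1.59 ± 0.0565, with a log2 change of 0.44. Mgst3, a microsomal glutathione transferase, was at 3.14 ± 0.382 in lenvatinib and 0.854 ± 0.571 in DMSO libraries, so it met the filter through its lenvatinib values. Glrx, a glutaredoxin, was at 6.23 ± 1.32 and 4.09 ± 0.746 with overlapping groups, and 9 of 18 alternatives did not call it. Gpx4 has annotated pseudogenes that could share its reads.

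In the thioredoxin, peroxiredoxin and scavenging list 4 of 17 tested genes rose and 2 fell, with a median of 0.08. The share called was 35.3 percent, against 18.7 percent of all tested genes. Sesn1, a sestrin induced by p53, fell to 48.6 ± 3.23 in lenvatinib libraries, against 77.4 ± 0.653 in DMSO libraries (log2 change −0.66, SE 0.05, limma adjusted p = 2.6e-05). Txnip, which binds and inhibits thioredoxin, fell to 439 ± 1.52 in lenvatinib libraries, against 514 ± 9.32 in DMSO libraries, a log2 change of −0.23 that was 0.03 when scaled to the B cell markers. Sod2, the mitochondrial superoxide dismutase, was higher at 14.7 ± 0.617 in lenvatinib and 12.1 ± 0.142 in DMSO libraries. Prdx3, the mitochondrial peroxiredoxin, was at 37.2 ± 1.97 in lenvatinib and 32.6 ± 0.487 in DMSO libraries, and 8 of 18 alternatives called it. The other 2 that rose, named after their values were seen, were the mitochondrial thioredoxin Txn2 and the peroxiredoxin Prdx5. The count that rose was 1 without DMSO replicate 3 and 3 without lenvatinib replicate 2. It was 2 without lenvatinib replicate 1 or 3 or DMSO replicate 1 or 2. Over all genes these fits called 772 to 850 higher, against 1038 with all libraries.

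Genes that supply NADPH, the electron donor of these reductases, were called higher in 2 and lower in 0 of 8 cases. The share called was 25 percent, against 18.7 percent of all tested genes, and the median was 0.18. Both genes called higher belong to the pentose phosphate pathway. Pgd was at 28.8 ± 1.28 in lenvatinib and 22.6 ± 0.639 in DMSO libraries (log2 change 0.33, limma adjusted p = 0.00213), and G6pdx at 12.9 ± 0.975 and 10.5 ± 0.754 (0.28, limma adjusted p = 0.0376). Idh1 and Idh2, isocitrate dehydrogenases, had log2 changes of 0.51 and 0.33 and did not pass. The call of G6pdx was lost without any of lenvatinib replicates 1 and 3 and the 3 DMSO replicates, where the limma adjusted p was 0.054 to 0.119.

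In haem and iron handling 1 of 8 tested genes rose and 2 fell, with a median of −0.04. That is 37.5 percent called, against 18.7 percent of all tested genes. The ferritin chains went opposite ways: light chain Ftl1 was at 878 ± 33.2 in lenvatinib and 767 ± 8.85 in DMSO libraries (log2 change 0.19, limma adjusted p = 0.00205), and heavy chain Fth1 at 1555 ± 21.5 and 1667 ± 41.3 (−0.1, limma adjusted p = 0.0214). Scaled to the B cell markers Fth1 was at 0.16, and without trend and robust moderation neither chain passed (limma adjusted p = 0.0518 for Ftl1 and 0.21 for Fth1). Ftl1 has annotated pseudogenes that could share its reads. Blvrb, a biliverdin reductase, fell to 31.5 ± 1.83 in lenvatinib libraries, against 36.1 ± 0.226 in DMSO libraries, a call absent in 9 of 18 alternatives. Abcb6, a porphyrin transporter, had a log2 change of 0.22, or 0.11 without lenvatinib replicate 1 and 0.14 without DMSO replicate 1, and did not pass. The erythroid markers were higher in the lenvatinib libraries, as given above, and their part in these values was not tested. The number that fell was 0 without lenvatinib replicate 3 or DMSO replicate 1. Over all genes 650 and 574 fell in these fits, against 816 with all libraries.

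The detoxification and export genes had a median of 0.17. Of 9 tested, 1 rose and 0 fell, 11.1 percent against 18.7 percent of all tested genes. It was Akr1a1, an aldehyde reductase, at 102.7 ± 6.63 in lenvatinib and 88.2 ± 2.52 in DMSO libraries (log2 change 0.22, limma adjusted p = 0.0134). Cbr1, Osgin1 and Abcc1 had log2 changes of 0.35, 0.25 and 0.19 and did not pass. Cbr1 was at 0.21 without lenvatinib replicate 2 and Abcc1 at 0.11 without lenvatinib replicate 3. The list of autophagy receptors and LC3 proteins, to which p62 binds, had a median of 0.1. Of its 11 tested genes 3 rose and 0 fell, 27.3 percent against 18.7 percent of all tested genes. All 3 belong to the GABARAP family. Gabarapl1 was at 16.8 ± 0.663 in lenvatinib and 11.9 ± 0.743 in DMSO libraries (0.46, limma adjusted p = 0.0012), Gabarapl2 at 48 ± 2.8 and 37.7 ± 0.876 (0.34, limma adjusted p = 0.00168) and Gabarap at 174.5 ± 0.973 and 161.3 ± 4.52 (0.11, limma adjusted p = 0.0273), which 9 of 18 alternatives called. The receptor Calcoco1 had 0.23 and did not pass.

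**Figure D4:**
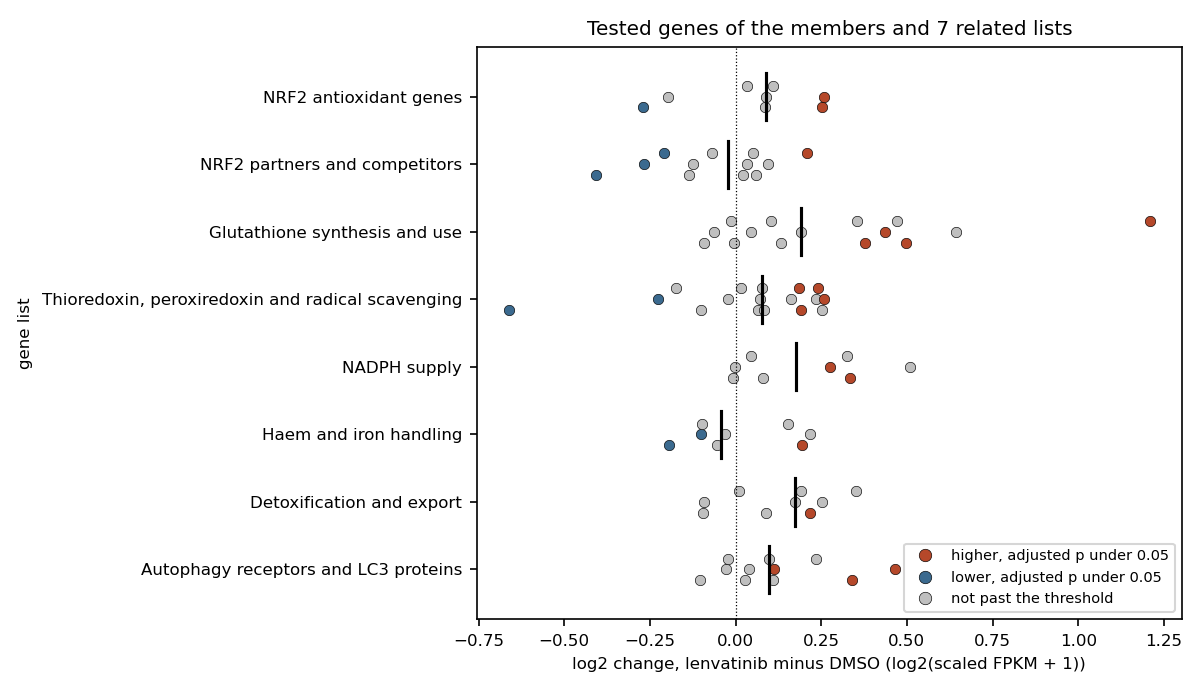
Log2 change (x axis, lenvatinib minus DMSO, on log2(scaled FPKM + 1)) of each tested gene in the members and in 7 related lists (rows). Points are genes, coloured where the limma adjusted p was under 0.05, and vertical bars are medians. The 8 medians lie between −0.04 and 0.19, and in 4 of the 8 rows genes were called only higher.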

How the data were processed

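RNA was sequenced from B cells sorted from colons, with 3 libraries of mice given lenvatinib and 3 of mice given DMSO. Per the labels' protocols, RNA was taken up in TRIzol and the library kit was VAHTS Universal V10. HTSeq and GRCm39 are the counter and build that the submitters' processing notes name. Aligner, annotation and strand setting are not given in the sources used here. Values were deposited as FPKM by the authors, in 1 column per library.

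FPKM was scaled by median-of-ratios factors over genes at 1 or more in every library. Genes at 1 or more in at least 3 libraries (9937) were fitted as log2(scaled FPKM + 1) on treatment in limma 3.58.1 under R 4.3.3, with trend and robust moderation, two-sided, and Benjamini-Hochberg adjustment over all tested genes. Whole reads, recovered from the FPKM steps to a tolerance of 1e-05 for 19714 of 19715 genes with a value, gave the depths, and the recovered lengths of 13 of 13 mitochondrial genes equalled their annotated ones. Replicates differed by more than counting noise. Procedures were tested on simulated data.

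The members and lists were chosen with earlier results of these data known. Named genes are the 10 members, Bach1, Bach2, Mafg, Mafk and Cul3, and up to 4 tested genes with the smallest p in each of 7 related lists. The alternatives were other pseudocounts, filters, scalings, weights and moderation, a replicate term, limma-voom on recovered reads, and leaving out each library.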

Additional observations from a re-analysis of the deposited data

How the results depend on the processing

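Across 18 alternatives planned and 2 added after seeing the data, Prdx1 and Sqstm1 kept their direction and call in all, and Nfe2l2 in all but scaling to the B cell markers, which moved the median of all genes to 0.23. With that scaling 50.4 percent of all genes were called higher and 1.63 percent lower. Against these shares 4 members were called higher and 0 lower, their median log2 change was 0.31, and Keap1 (0.0139), Bach1 (0.1124), Fbxw11 (0.0347), Txnip (0.0302), Blvrb (0.0546) and Fth1 (0.1558) reversed. It called higher 7 and lower 0 of the partners and competitors, higher 9 around glutathione, higher 10 and lower 1 among thioredoxin and scavenging genes, higher 7 for NADPH supply, higher 4 and lower 0 for haem and iron, higher 6 for detoxification and higher 10 for autophagy. When 1 library was left out, Hmox1 ran from −0.0033 (without lenvatinib replicate 3) to 0.238, Gclc from −0.0088 (without DMSO replicate 1) to 0.0854, Cul3 from −0.0031 (without lenvatinib replicate 1) to 0.0458, and the median of the members from 0.0201 (without DMSO replicate 2) to 0.135. The sign of Cul3 also turned when scaled to the sum of FPKM (−0.0052). Without a filter on low values the calls higher were 1 for thioredoxin and scavenging, 1 for NADPH and 0 for detoxification, and lower 1 for haem and iron. Scaled to the sum of FPKM they were 2 for thioredoxin and scavenging and 1 for NADPH. With neither trend nor robust moderation they were 1 for thioredoxin and scavenging, 0 for haem and iron, with 0 lower, and 0 for detoxification. With limma-voom they were 4 for NADPH and 2 for detoxification, and 1 lower for haem and iron. Calls over all genes moved as well. The main fit called 1038 higher and 816 lower of 9937, and the fit without the filter 719 and 545 of 19715. Scaling to the sum of FPKM gave 859 and 978 of 9935. Neither trend nor robust moderation gave 743 and 647 of 9937, and limma-voom 1265 and 1222 of 9937. With a pseudocount of 1 the log2 ratio difference was −0.142 for Prdx1 over Srxn1 and −0.285 for Bach2 over Bach1. Calls in the related lists when 1 library was left out were 1 to 2 lower and 0 to 1 higher for partners and competitors, 1 to 3 higher for thioredoxin and scavenging, 1 to 2 higher for NADPH, 0 to 1 lower for haem and iron and 1 to 2 higher for detoxification. Over all genes, leaving out 1 library gave 772 to 850 calls higher and 563 to 650 lower, against 1038 and 816 with all libraries. The B cell marker factors, by which FPKM was divided, were 0.9107 to 0.9275 in lenvatinib and 1.0704 to 1.1001 in DMSO libraries. That scaling therefore raised lenvatinib values relative to DMSO values. The cause of the other shifts was not tested.

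With the replicate number as a term (replicate block), 2 members were higher and 1 lower as before, 2 thioredoxin and scavenging genes and 3 detoxification genes were higher, and 894 of all genes were higher and 648 lower, against 1038 and 816 without it. Same-numbered libraries showed no shared deviation (correlations of −0.007, 0.006 and −0.005 across genes), and not every library correlated best with its own number. With 3 libraries per group these values cannot settle pairing, and the labels do not say whether the numbers pair the libraries. Depth limits Nqo1 and Srxn1 most, with 15 and 61 reads over the DMSO group.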
